A study of Mus musculus with 4 samples.

Results

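Neurotransmitter receptor subunits were compared between 2 populations of sorted mouse neural tube cells. The set held 70 genes of the 18193 genes with a probe set of their own, chosen by gene symbol alone: all AMPA, kainate and NMDA glutamate receptor subunits, metabotropic glutamate receptors, GABA-A and GABA-B receptor subunits, glycine receptor subunits, nicotinic acetylcholine receptor subunits and serotonin receptors with a single-symbol probe set. They were read by 137 probe sets, and each gene was represented by the one with the highest mean deposited signal over the 4 arrays. Of the 70 genes, 31 passed a filter on low signal and were tested, and 39 lay below it and are described by their values only. Atoh1-GFP cells came from embryos of the Atoh1BAC-GFP line, in which a bacterial artificial chromosome of the Atoh1 locus carries GFP and marks the cells that form dorsal interneuron 1 (dI1). dNeurog1-GFP cells came from embryos in which an enhancer of Neurog1 drives GFP in the dorsal neural tube and marks dorsal interneuron 2 (dI2). All embryos were at E10.5 and of mixed B6SJLF1 and ICR background, and neural tubes were taken from the forelimb to the hindlimb level and sorted for GFP. Each population was measured on 2 Affymetrix arrays, labelled as biological replicates 1 and 2. Cells were sorted into GFP-negative and GFP-positive fractions, the labels leave it unsaid which fraction each array holds, and they give no number of embryos.

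Ionotropic receptors are ion channels assembled from several subunits, and the subunits present set which transmitter opens the channel, how fast it closes and which ions pass. Metabotropic receptors signal through G proteins instead. In the embryonic spinal cord, receptor subunits are transcribed in newborn neurons before mature synapses form, and transmitter released there early acts on growing axons and on spontaneous network activity. dI1 and dI2 cells lie next to each other in the dorsal neural tube and give rise to different classes of spinal relay neurons.

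Deposited signals had been scaled to a trimmed mean of 250 on both replicate 1 arrays and of 500 on both replicate 2 arrays, so all arrays were put on a trimmed mean of 500 and signals below are on that scale. The replicate number is therefore also a processing batch that holds 1 array of each population, and each comparison is given without it, with it as a block, and within each replicate number. Dim probe sets still differed by replicate number: the lower quartile of the signal was 42.4 and 17.6 on the Atoh1-GFP arrays of replicates 1 and 2, against 34.3 and 17.4 on the dNeurog1-GFP arrays. The transcripts of both factors fitted the labels. Atoh1 gave signals of 21412 and 19675 in Atoh1-GFP cells, against 1772 and 1861 in dNeurog1-GFP cells (adjusted p = 0.0043 in limma without the block). Neurog1 had 172 and 176 in Atoh1-GFP cells, against 1388 and 2469 in dNeurog1-GFP cells (adjusted p = 0.021). With the block, 5 of 5 dI1 markers were higher in Atoh1-GFP cells and 4 of 6 dI2 markers were lower. Other cell types also differed. The summed signal of 12 neuron markers was 65744 and 67706 in Atoh1-GFP cells, against 44388 and 58863 in dNeurog1-GFP cells, and 4 of the 12 were higher and 1 lower with the block. For 14 progenitor markers the sums were 57491 and 50278 in Atoh1-GFP cells, against 83535 and 64933 in dNeurog1-GFP cells, and 6 were lower with the block. For 14 ventral and motor neuron markers they were 1856 and 1158 in Atoh1-GFP cells, against 1862 and 4648 in dNeurog1-GFP cells, so the dNeurog1-GFP replicate 2 array stood apart, and 2 were lower with the block. Markers of blood and endothelium (10 genes) summed to 31924 and 32229 in Atoh1-GFP cells, against 8307 and 23295 in dNeurog1-GFP cells. Of these sums the globin gene Hbb-y alone gave 17369 and 17478, against 5247 and 13725, and 0 of the 9 tested were called with the block. Markers of heart muscle (5 genes) summed to 841 and 2291 in Atoh1-GFP cells, against 191 and 457 in dNeurog1-GFP cells, and 2 of the 5 were higher with the block. The part of these cells in the receptor results was not tested. As in any bulk sample, fewer cells of a type and less RNA per cell cannot be told apart.

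The main fit, without a block, called 0 of the 31 tested receptor subunits. With the replicate number as a block, the alternative fit, 6 receptor subunits differed between the populations. Gria4, an AMPA receptor subunit, Htr1b, an inhibitory serotonin receptor, and the nicotinic subunits Chrnb4, Chrna3 and Chrna4 were higher in Atoh1-GFP cells, by 1.98-fold to 3.66-fold, and the nicotinic subunit Chrna7 was lower in Atoh1-GFP cells, at 0.318 of its level in dNeurog1-GFP cells (ratios of signal + 32). These 6 of 31 tested subunits passed an adjusted p of 0.05 in limma with the replicate number as a block, where 6.32% of all 12733 genes tested did. Averaging the probe sets of each gene ended the calls of Htr1b, Chrna4 and Chrna7, so serotonin receptors rest on 1 probe set of 1 gene. Of the 6, 5 were higher in Atoh1-GFP cells, against 2.69% of all genes, and 1 was lower, against 3.64%. Without the block 0 of 31 passed, where 0.22% of all genes did, and 5 of 31 had an unadjusted p under 0.05, against 8.62% of all genes. Leaving out any 1 of the 4 arrays from the fit without a block moved the log2 difference of Gria4 between 1.64 and 2.10. That of Chrna4 moved between 0.12 and 1.85. The block leaves 1 residual degree of freedom, so its p-values rest largely on the spread shared across genes.

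The direction was the same within both replicate numbers for 24 of the 31 subunits, 18 higher and 6 lower in Atoh1-GFP cells, where 67.0% of all genes kept one direction (33.3% higher and 33.7% lower). The arrays of the populations did not overlap for 11 subunits, 8 higher and 3 lower in Atoh1-GFP cells, against 34.8% of all genes (16% higher and 18.8% lower). The members' share, 35.5%, lay near that background. At least 2-fold differences in the same direction within both replicate numbers were found for 4 subunits, Gria4, Htr1b, Chrnb4 and Chrna7, against 2.27% of all genes (1.11% higher and 1.16% lower). The median log2 difference of the 31 was 0.29 (0.39 within replicate 1 and 0.13 within replicate 2), beside 0.01 over all genes tested. It was -0.13 without the Atoh1-GFP replicate 1 array, -0.03 without the dNeurog1-GFP replicate 2 array, and 0.09 with the filter on low signal left off. Differences within replicate 1 and within replicate 2, which share no array, had a Pearson r of 0.81 across the 31 genes and 0.56 across all genes tested, and genes are not independent.

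**Figure D1:**
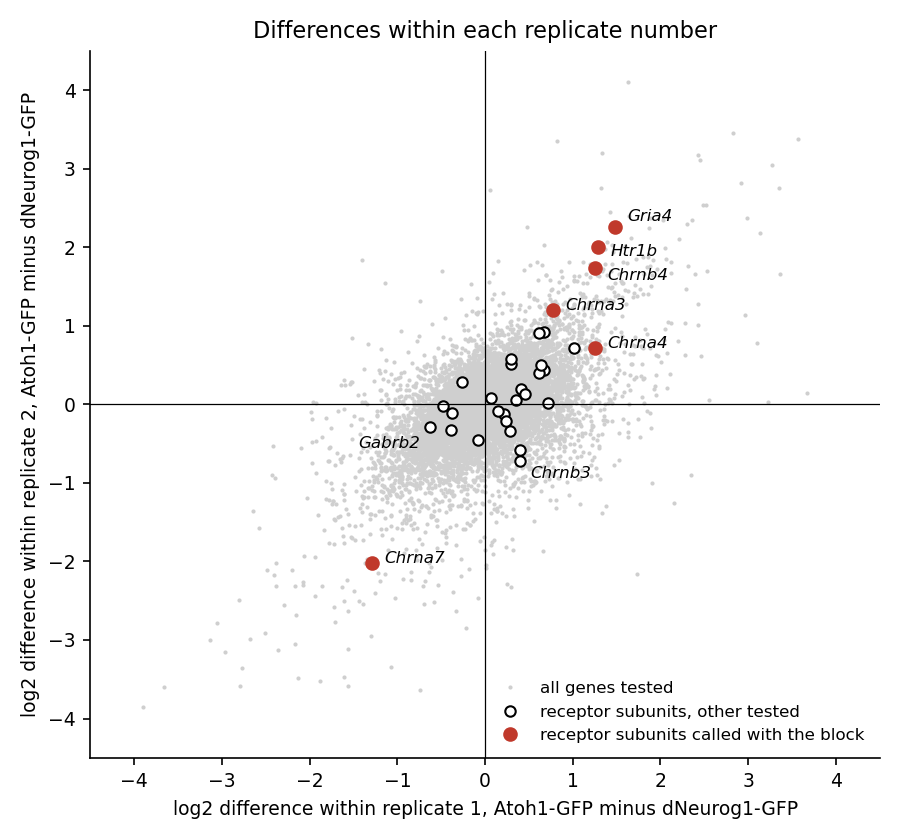
Log2 difference of each gene, dNeurog1-GFP subtracted from Atoh1-GFP on the log2(signal + 32) scale, within replicate 1 (x axis) and within replicate 2 (y axis); grey points are all 12733 genes tested, open circles the receptor subunits not called and red circles those called with the replicate block. The 6 called subunits lie away from the origin in the same quadrant for both replicate numbers, 5 toward Atoh1-GFP cells and Chrna7 toward dNeurog1-GFP cells, and the other 25 lie within the bulk of all genes.

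Among AMPA receptor subunits, which form the fast glutamate-gated channels, Gria4 had the largest difference of all receptor genes tested. Its brightest probe set gave signals of 1032 and 1439.9 in Atoh1-GFP cells, against 349 and 276 in dNeurog1-GFP cells. Both Atoh1-GFP arrays lay above both dNeurog1-GFP arrays. On the log2(signal + 32) scale the means were 10.29 ± 0.33 and 8.42 ± 0.22 (SD, n = 2 each), a difference of 1.87 with 1.48 within replicate 1 and 2.26 within replicate 2. The standard error was 0.27 without the block (adjusted p = 0.070) and 0.22 with it (adjusted p = 0.011). Gria4 was called in all 7 of the fits with a block. Gria2, the subunit that makes AMPA channels impermeable to calcium once its RNA is edited, had 473 and 269 in Atoh1-GFP cells, against 293 and 181 in dNeurog1-GFP cells, and the groups overlapped. Its difference of 0.57 did not pass (adjusted p = 0.86, with the block 0.16). Gria1 and Gria3 lay below the filter. Gria1 gave signals of 33.3 and 36.6 in Atoh1-GFP cells, against 34.1 and 36.1 in dNeurog1-GFP cells.

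Kainate receptor subunits form slower glutamate-gated channels, and 4 of 5 were tested with 0 called in either fit. Grik5, an accessory subunit of kainate receptors, had 406 and 687 in Atoh1-GFP cells, against 493 and 559 in dNeurog1-GFP cells. Its difference was 0.01, and the 2 Atoh1-GFP arrays enclosed both dNeurog1-GFP arrays. Grik3 had 548 and 214 in Atoh1-GFP cells, against 407 and 337 in dNeurog1-GFP cells, and went 0.40 within replicate 1 and -0.58 within replicate 2. Grik4 had the largest difference of the family, 0.37, nearly all of it within replicate 1 (0.72, against 0.01 within replicate 2). Grik2 differed by -0.03. NMDA receptors, glutamate channels that also need glycine or serine to open, had 2 of 6 subunits over the filter. Grin2b, the subunit typical of embryonic NMDA receptors, had 157 and 45.9 in Atoh1-GFP cells, against 91.8 and 9.52 in dNeurog1-GFP cells. It was higher in Atoh1-GFP cells within each replicate number (0.61 and 0.91), yet the replicate numbers differed more than the populations did, and it did not pass (adjusted p = 0.99, with the block 0.18). Grin2d had 177 and 75.5 in Atoh1-GFP cells, against 148 and 84.7 in dNeurog1-GFP cells. Neither NMDA subunit separated the populations.

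Of the metabotropic glutamate receptors, Grm2 and Grm4, both coupled to G proteins that lower cyclic AMP, were over the filter and 4 others were not. Grm2 had 323 and 387 in Atoh1-GFP cells, against 433 and 494 in dNeurog1-GFP cells, which differ by -0.36 on the log2 scale. Grm4 had 471 and 393 in Atoh1-GFP cells, against 336 and 357 in dNeurog1-GFP cells, a difference of 0.29. The groups did not overlap for either gene, in opposite directions, and neither passed (adjusted p = 0.89 and 0.97, with the block 0.29 and 0.42).

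**Figure D2:**
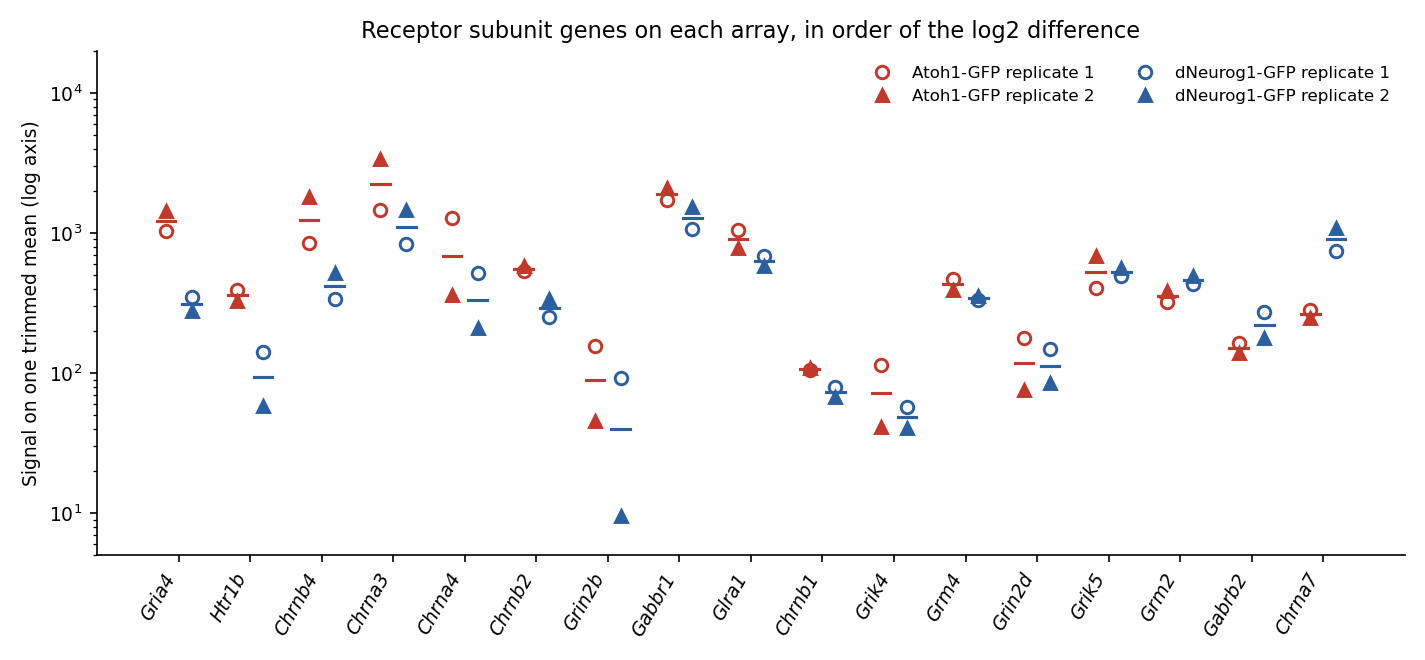
Signal of 17 receptor subunit genes on a trimmed mean of 500 (log axis), ordered by the log2 difference from highest in Atoh1-GFP to highest in dNeurog1-GFP cells; red is Atoh1-GFP and blue dNeurog1-GFP, circles are replicate 1 and triangles replicate 2, and bars are means of log2(signal + 32) turned back to signal. Gria4, Htr1b and Chrnb4 have both Atoh1-GFP arrays above both dNeurog1-GFP arrays and Chrna7 has both below, while Chrna3 and Chrna4 overlap between the populations across replicate numbers.

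Nicotinic receptors, the acetylcholine-gated channels, had the most tested subunits of any receptor family and the most calls. With the block 4 of 8 were called, 3 higher and 1 lower in Atoh1-GFP cells, where 6.32% of all genes tested were called. With averaged probe sets only Chrna3 and Chrnb4 of the family were called with the block. Chrna3, Chrnb4 and Chrna5 are neighbours on chromosome 9, and their products combine in the receptor known from autonomic ganglia, Chrna5 as an accessory subunit. Chrnb4 gave signals of 852 and 1809 in Atoh1-GFP cells, against 339.96 and 520.2 in dNeurog1-GFP cells. The groups did not overlap, and the difference was 1.49 (standard error with the block 0.17, adjusted p = 0.011; without it 0.39 and 0.27). Chrna3 had 1450.1 and 3403 in Atoh1-GFP cells, against 837 and 1467 in dNeurog1-GFP cells. The lowest Atoh1-GFP array lay just under the highest dNeurog1-GFP array, and the difference was 0.98 (0.77 within replicate 1 and 1.20 within replicate 2; adjusted p = 0.021 with the block, 0.64 without it). Chrna5 had 156 and 362 in Atoh1-GFP cells, against 86.4 and 177 in dNeurog1-GFP cells. It was higher in Atoh1-GFP cells by 0.67 and 0.92 within the replicate numbers and did not pass (adjusted p = 0.11 with the block, 0.83 without it). All 3 neighbours had more signal in Atoh1-GFP than in dNeurog1-GFP cells in each replicate number. At the probe sets used, all 3 had their highest signal on the Atoh1-GFP replicate 2 array. Another Chrna3 probe set had 2168 and 2064 in Atoh1-GFP cells, against 873 and 921 in dNeurog1-GFP cells. A further one had 299 and 257, against 107.5 and 98.7, and neither overlapped between the populations. The other Chrnb4 probe set had 388 and 192 in Atoh1-GFP cells, against 190 and 91.4 in dNeurog1-GFP cells. In the fit without a block the size at the probe sets used rested on single arrays. Without the Atoh1-GFP replicate 2 array the difference was 0.38 for Chrna3 and 0.96 for Chrnb4, and without the Atoh1-GFP replicate 1 array it was 1.59 for Chrna3 and 2.02 for Chrnb4. Chrna3 gave 0.59 without the dNeurog1-GFP replicate 1 array. Chrna3 and Chrna5 overlap at their ends on opposite strands in the reference gene table, and where their probes lie was not examined.

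Sensory and autonomic neurons also use Chrna3 and Chrnb4, so markers of neural crest and sensory cells are given beside them. Of 5 such markers on the array, 4 were over the filter, 1 higher with the block and 0 lower. P2rx3, an ATP-gated channel of sensory neurons, had 616 and 948 in Atoh1-GFP cells, against 118 and 276 in dNeurog1-GFP cells, and passed with the block (adjusted p = 0.0085). Prph, a peripheral neuron filament gene, had 72.9 and 40.9 in Atoh1-GFP cells, against 169 and 310 in dNeurog1-GFP cells, and Sox10, the neural crest factor, had 36.0 and 97.7 in Atoh1-GFP cells, against 6.81 and 291 in dNeurog1-GFP cells. The summed signal of the 5 was 1097 and 1272 in Atoh1-GFP cells, against 490.4 and 1257 in dNeurog1-GFP cells. The part of such cells in the difference of Chrna3 and Chrnb4 was not tested.

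The start-site regions of the genes in the nicotinic cluster are shown because these neighbours differed in the same direction, and those of Gria4 and Chrna7 because these had the largest difference in each direction. Each is the 300 bases from 250 before to 50 after an annotated start, 5′ to 3′ on the strand of the gene, from RefSeq on GRCm38.p6. Capitals mark matches to the E-box CANNTG, the core motif of the basic helix-loop-helix family to which Atoh1 and Neurog1 belong. The motif reads the same on both strands and 2 of its matches overlap in the Chrna3 region.
Chrnb4, chr9:55048495-55048794, minus strand: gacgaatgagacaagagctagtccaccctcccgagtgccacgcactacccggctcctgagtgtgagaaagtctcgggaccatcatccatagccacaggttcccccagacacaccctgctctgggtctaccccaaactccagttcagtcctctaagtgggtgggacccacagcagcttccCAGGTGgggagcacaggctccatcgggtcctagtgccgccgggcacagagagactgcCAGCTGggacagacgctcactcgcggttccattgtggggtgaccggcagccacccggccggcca
Chrna3, chr9:55026513-55026812, minus strand: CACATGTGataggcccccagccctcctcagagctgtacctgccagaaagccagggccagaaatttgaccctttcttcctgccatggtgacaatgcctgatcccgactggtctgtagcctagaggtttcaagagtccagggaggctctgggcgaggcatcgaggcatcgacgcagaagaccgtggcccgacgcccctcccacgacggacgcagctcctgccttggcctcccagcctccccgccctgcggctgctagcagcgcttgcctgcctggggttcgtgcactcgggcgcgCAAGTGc
Chrna5, first annotated start, chr9:54980630-54980929, plus strand: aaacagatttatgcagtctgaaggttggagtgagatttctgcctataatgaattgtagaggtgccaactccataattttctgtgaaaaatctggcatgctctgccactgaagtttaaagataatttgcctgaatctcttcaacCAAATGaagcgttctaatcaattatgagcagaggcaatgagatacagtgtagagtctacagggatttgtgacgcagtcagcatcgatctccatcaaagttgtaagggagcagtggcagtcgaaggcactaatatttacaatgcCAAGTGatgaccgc
Chrna5, second annotated start, chr9:54981238-54981537, plus strand: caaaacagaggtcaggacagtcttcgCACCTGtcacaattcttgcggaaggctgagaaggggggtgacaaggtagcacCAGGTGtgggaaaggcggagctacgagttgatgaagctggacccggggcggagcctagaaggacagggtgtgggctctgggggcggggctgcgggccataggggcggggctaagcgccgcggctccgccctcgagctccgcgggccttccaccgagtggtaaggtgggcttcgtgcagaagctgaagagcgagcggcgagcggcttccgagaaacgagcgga
Gria4, chr9:4796185-4796484, minus strand: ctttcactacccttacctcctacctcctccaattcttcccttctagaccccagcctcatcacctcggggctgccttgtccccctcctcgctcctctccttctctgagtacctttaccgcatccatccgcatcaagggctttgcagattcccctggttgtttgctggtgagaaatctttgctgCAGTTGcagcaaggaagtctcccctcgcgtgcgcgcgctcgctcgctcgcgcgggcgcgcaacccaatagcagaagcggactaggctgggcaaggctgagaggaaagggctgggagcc
Chrna7, chr7:63212477-63212776, minus strand: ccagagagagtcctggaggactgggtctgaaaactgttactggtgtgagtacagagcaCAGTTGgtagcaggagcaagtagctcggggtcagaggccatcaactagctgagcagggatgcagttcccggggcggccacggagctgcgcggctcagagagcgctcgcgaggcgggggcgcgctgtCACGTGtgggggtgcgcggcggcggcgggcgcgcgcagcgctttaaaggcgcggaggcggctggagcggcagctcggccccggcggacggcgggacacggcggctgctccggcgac
All 6 regions held CANNTG, as did 72.3% of the 32851 start-site regions in the table and 58.7% of the 63 regions of the 53 receptor subunit genes found there. The narrower forms CAGCTG and CAGATG, searched on both strands and contained in CANNTG, were found in 1 of the 6, that of Chrnb4, in 30.6% of all regions and in 19.0% of the receptor regions. A match describes letters only.

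Chrna4 and Chrnb2 encode the subunits of the main heteromeric nicotinic receptor of the brain. Chrna4 gave signals of 1285 and 364 in Atoh1-GFP cells, against 519 and 209.9 in dNeurog1-GFP cells. Both populations were higher in replicate 1, so the groups overlapped, while within each replicate number Atoh1-GFP was higher (1.26 and 0.71). It passed with the block (adjusted p = 0.044) and not without it (0.85). Its call with the block ended with no filter (adjusted p = 0.086) and with averaged probe sets (0.48, adjusted p = 0.12). Without the block, the difference was 0.12 without the Atoh1-GFP replicate 1 array, 0.39 without the dNeurog1-GFP replicate 2 array, 1.58 without the dNeurog1-GFP replicate 1 array and 1.85 without the Atoh1-GFP replicate 2 array. Chrnb2 had 536 and 579 in Atoh1-GFP cells, against 249.9 and 341 in dNeurog1-GFP cells. Its arrays did not overlap, and its difference of 0.86 lay just outside the threshold with the block (adjusted p = 0.051, without it 0.34). Of the 12 neuron markers, 9 had more signal in Atoh1-GFP cells in both replicate numbers. In 2, the neurofilament genes Nefl and Nefm, it was less in both, and Gap43 changed direction (0.13 and -1.36). The part of neurons in the Chrna4 and Chrnb2 differences was not tested.

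Chrna7, which forms a homomeric channel with high calcium permeability, went the other way. Its brightest probe set had 284 and 246 in Atoh1-GFP cells, against 740.05 and 1095 in dNeurog1-GFP cells, with no overlap. The log2 means were 8.21 ± 0.13 and 9.87 ± 0.39 (SD, n = 2 each), a difference of -1.65 with -1.29 within replicate 1 and -2.02 within replicate 2 (adjusted p = 0.016 with the block, 0.094 without it). Averaged over both of its probe sets it was -0.71 and did not pass (adjusted p = 0.14 with the block). The 12 tested ventral and motor neuron markers had a median of 0.04 in replicate 1 and of -1.92 in replicate 2. In each replicate number 4 of them were lower and 3 higher in Atoh1-GFP cells. Those lower within both were Lhx4, Olig2, Mnx1 and Nkx6-1, with -2.13, -1.56, -0.74 and -0.69 within replicate 1. Those higher within both were Foxa2, Shh and Sim1, with 1.36, 0.98 and 0.69 within replicate 1 and 0.01, 0.41 and 0.17 within replicate 2. The part of such cells in the Chrna7 difference was not tested. The subunits of the muscle receptor gave little signal. Chrnb1 had 105 and 109.6 in Atoh1-GFP cells, against 79.4 and 67.1 in dNeurog1-GFP cells (difference 0.41, adjusted p = 0.42 with the block), and Chrna1, Chrnd, Chrne and Chrng lay below the filter. Chrnb3 had 126 and 10.9 in Atoh1-GFP cells, against 88.4 and 39.0 in dNeurog1-GFP cells, and changed direction between replicate numbers. Chrna2, Chrna6 and Chrna9 were below the filter.

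**Figure D3:**
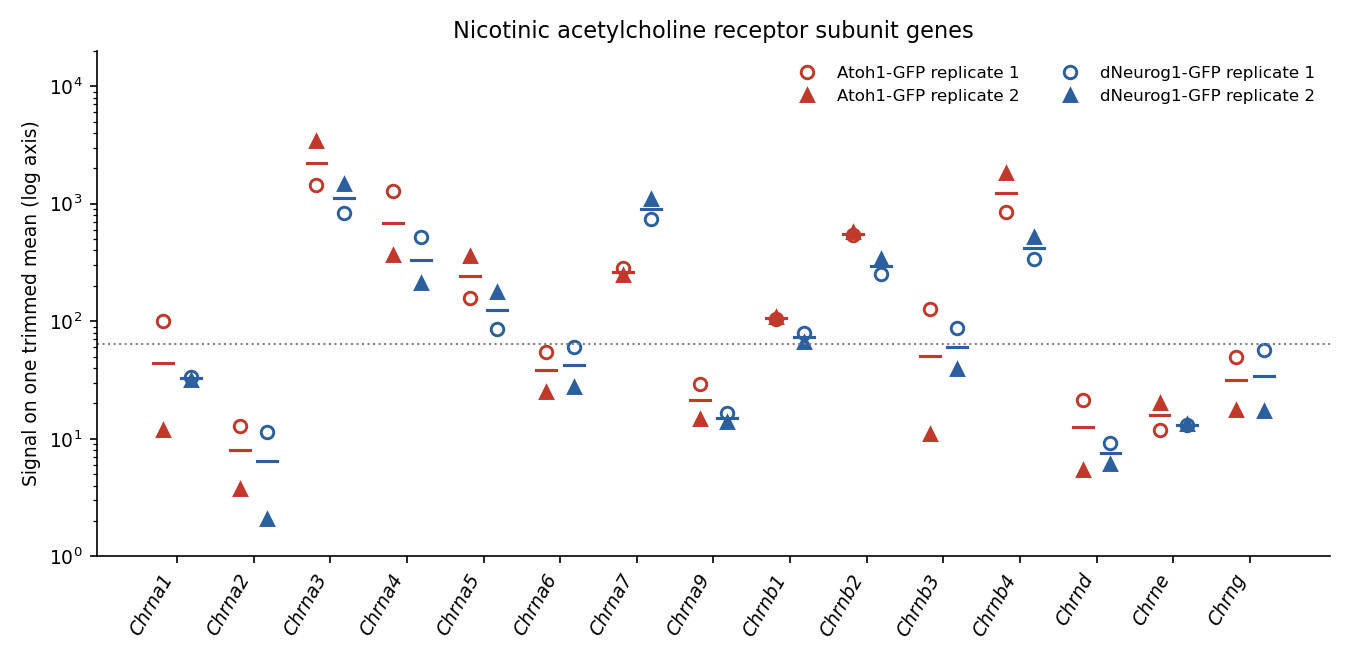
Signal of the 15 nicotinic receptor subunit genes on a trimmed mean of 500 (log axis); red is Atoh1-GFP and blue dNeurog1-GFP, circles are replicate 1 and triangles replicate 2, bars are means of log2(signal + 32) turned back to signal, and the dotted line is the filter at 63.5, applied to the mean over 4 arrays. Chrna3, Chrna4, Chrna5, Chrnb2 and Chrnb4 sit higher in Atoh1-GFP cells in each replicate number, Chrna7 sits higher in dNeurog1-GFP cells, and 7 subunits lie below the filter.

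GABA and glycine receptors, the inhibitory channels of the mature spinal cord, showed no called difference. Of 15 GABA-A subunits 5 were tested, with log2 differences from -0.46 to 0.44 and 0 called in either fit. Gabrb2, a beta subunit, had 165 and 140.3 in Atoh1-GFP cells, against 274 and 179 in dNeurog1-GFP cells, with no overlap and a difference of -0.46 (adjusted p = 0.92, with the block 0.30). The size depended on the probe set: its other probe sets gave from -0.43 to 0.24, and averaged probe sets gave -0.15. For Gabrb2, as for Gabrb1, Gabre, Gabrp and Gabra3, the replicate 1 array exceeded the replicate 2 array in both populations. Gabbr1, which binds GABA in the metabotropic GABA-B receptor, had 1718 and 2099 in Atoh1-GFP cells, against 1066 and 1541 in dNeurog1-GFP cells. Its arrays did not overlap, and its difference of 0.56 did not pass (adjusted p = 0.69, with the block 0.063). Glra1, a glycine-binding alpha subunit, had 1060.2 and 785 in Atoh1-GFP cells, against 683 and 586 in dNeurog1-GFP cells, without overlap (difference 0.51, adjusted p = 0.71, with the block 0.11). Glrb, the beta subunit that ties glycine receptors to gephyrin, had 409.7 and 142 in Atoh1-GFP cells, against 436 and 207 in dNeurog1-GFP cells. Its probe set is of the x type, which Affymetrix marks as able to read other transcripts. That probe set gave a difference of -0.27, and its other probe set, which is not of that type, gave -0.27 too. Beside these receptors, 6 of 8 tested markers of inhibitory dorsal neurons, among them Gad1, which makes GABA, and Slc6a5, the neuronal glycine transporter, fell in Atoh1-GFP cells when the block was used.

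Of 13 serotonin receptor genes 5 were tested, and Htr1b alone passed, with the block. Htr1b, which lowers transmitter release in the mature nervous system, had 393 and 328 in Atoh1-GFP cells, against 142 and 58.2 in dNeurog1-GFP cells. The groups did not overlap, and the difference was 1.64 (1.29 within replicate 1 and 2.00 within replicate 2; standard error with the block 0.26, adjusted p = 0.025, without it 0.40 and 0.23). Its other probe set gave -0.36, and the call with the block ended with averaged probe sets (0.64, adjusted p = 0.12) and with no filter (adjusted p = 0.064). The other tested members, Htr1a, Htr1d, Htr3a and Htr7, had differences from -0.25 to 0.03. Htr3a, a subunit of the serotonin-gated channel, had 250.1 and 63.2 in Atoh1-GFP cells, against 206 and 78.1 in dNeurog1-GFP cells. Its spread between replicate numbers exceeded the difference of 0.02 between populations.

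Different probe sets of a gene did not always move together. For Chrna3 all 3 probe sets gave between 0.98 and 1.21, for Chrna5 both gave 0.79 and 1.05, and for Chrnb4 both gave 1.49 and 0.89. For Gria4, 2 of 3 gave 1.87 and 1.92 and the other 0.31. For Htr1b the other probe set, with 283 and 80.8 in Atoh1-GFP cells, against 251 and 176 in dNeurog1-GFP cells, gave -0.36. For Chrna7 the other, with 87.5 and 61.6 in Atoh1-GFP cells, against 53.1 and 63.8 in dNeurog1-GFP cells, gave 0.23. One of the 3 Chrna4 probe sets gave -0.03. When all probe sets over the filter were averaged per gene, Gria4 (1.37), Chrnb4 (1.19) and Chrna3 (1.13) passed with the block, and Htr1b (0.64), Chrna4 (0.48) and Chrna7 (-0.71) did not.

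**Figure D4:**
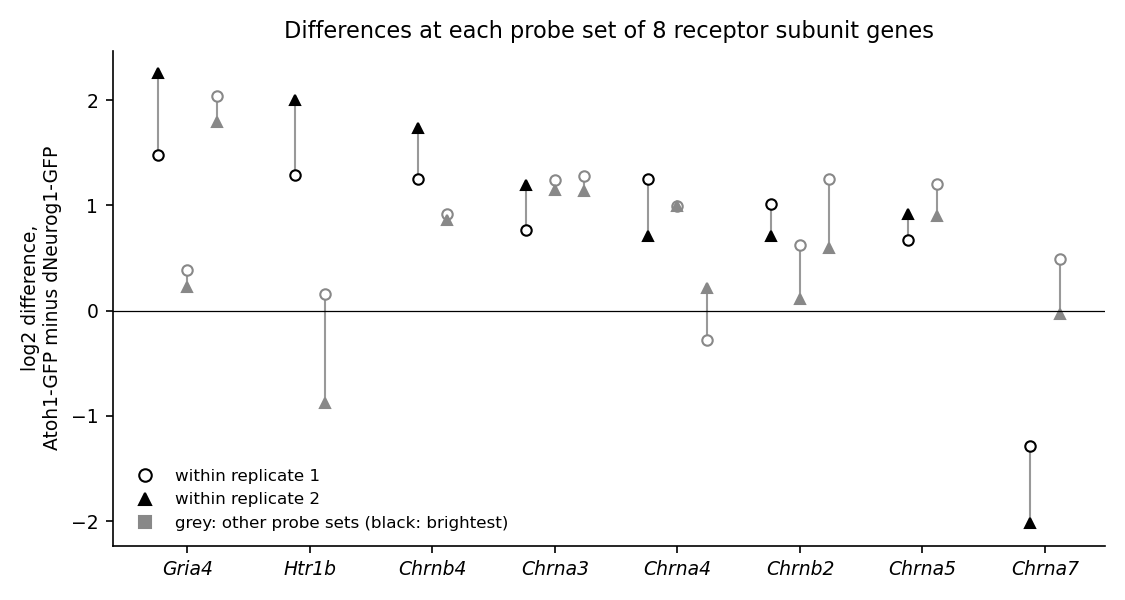
Log2 difference, dNeurog1-GFP subtracted from Atoh1-GFP on the log2(signal + 32) scale, at each probe set of 8 receptor subunit genes; circles are the difference within replicate 1 and triangles within replicate 2, joined by a line, black for the brightest probe set of the gene and grey for the others. All probe sets of Gria4, Chrnb4, Chrna3, Chrnb2 and Chrna5 lie above 0, whereas Htr1b, Chrna4 and Chrna7 each have a probe set near or across 0.

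The 39 subunits below the filter had mean signals from 5.42 to 58.1 over the 4 arrays. They comprised 10 GABA-A, 8 serotonin, 7 nicotinic, 4 NMDA, 4 metabotropic glutamate, 3 glycine, 2 AMPA and 1 kainate gene. Signal at this level followed the replicate number. Their median ratio of replicate 1 to replicate 2 was 2.16 in Atoh1-GFP cells and 1.49 in dNeurog1-GFP cells. In 23 of the 39 the direction was the same within both replicate numbers, and 0 differed at least 2-fold in one direction within both. The shares over all genes below the filter were not computed, so these counts have no background. Gabrg1, a gamma subunit of GABA-A receptors, had the lowest value among them, -1.34, with signals of 4.13 and 22.2 in Atoh1-GFP cells, against 98.9 and 63.8 in dNeurog1-GFP cells. Htr2c, a serotonin receptor coupled to phospholipase C, had the highest, 0.88, with 76.4 and 48.5 in Atoh1-GFP cells, against 25.5 and 12.8 in dNeurog1-GFP cells. Neither was tested.

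Genes that anchor, traffic or serve these receptors were taken as a list of 68, of which 62 were on the array and 52 were tested. With the block 6 were higher and 1 was lower in Atoh1-GFP cells, where 2.69% of all genes were higher and 3.64% lower. Without it 0 passed, and 10 had an unadjusted p under 0.05, against 8.62% of all genes. The median difference of the 52 was 0.20. Cbln2, a secreted synapse organiser, had 590.5 and 955 in Atoh1-GFP cells, against 137 and 158 in dNeurog1-GFP cells, a difference of 2.13 (adjusted p = 0.0071 with the block, 0.070 without it). Dlgap3, a scaffold protein of glutamate synapses, had 668 and 519.5 in Atoh1-GFP cells, against 245 and 139 in dNeurog1-GFP cells, a difference of 1.51 (adjusted p = 0.015 with the block). Both genes separated the populations without overlap. The scaffold genes Homer2 (0.90) and Dlgap4 (0.66), the nicotinic receptor modulator Ly6h (0.85) and the GABA-A receptor trafficking gene Gabarapl1 (0.67) were also higher in Atoh1-GFP cells, with adjusted p from 0.030 to 0.044 with the block. Lrp4, the agrin receptor known from the neuromuscular junction, was lower, with 241 and 339 in Atoh1-GFP cells, against 516 and 791 in dNeurog1-GFP cells (-1.08, adjusted p = 0.025 with the block). By class, 4 of 29 tested glutamate synapse genes, 1 of 13 inhibitory synapse genes and 1 of 10 cholinergic genes were higher with the block, and Lrp4 was the lower one among the cholinergic genes.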

How the data were processed

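RNA of 4 samples, 2 per population, was measured on Affymetrix arrays. The authors deposited linear signal intensities per probe set, made with MAS5 per the submitters' processing notes, which give no version. Each array was multiplied to a trimmed mean (2% left out at each end) of 500. The 64 control probe sets were left out. Of the other 45037, 34945 had 1 gene symbol in the platform annotation, 932 several and 9160 are unnamed here. A gene was tested where its probe set's mean signal reached the 40th percentile, 63.5, which left 12733 genes. No detection calls were used. Precision is limited by the number of arrays.

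Atoh1-GFP minus dNeurog1-GFP was computed on log2(signal + 32), a scale that understates changes of dim genes, with limma 3.58.1 in R 4.3.3 (lmFit, eBayes with trend), Benjamini-Hochberg adjusted over all genes tested. The fit without a block has 2 residual degrees of freedom and the fit with the replicate number as a block has 1. The labels do not say that equal numbers pair samples; deviations of same-numbered arrays correlated at 0.66 across genes. The fit without a block was therefore the main one, and the block is given as an alternative because the deposited scaling differed by number. Scripts were tested on simulated data. The labels call the replicates biological.

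Members, lists and tests were chosen with earlier results of these data known. Named genes were, by rule, those called in either fit, those 2-fold apart within both replicate numbers, the brightest and most different tested gene of each family, and then the largest differences without overlap (17 genes in all). Other members named, and the probe sets compared, were chosen after their values were seen.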

Additional observations from a re-analysis of the deposited data

How the results depend on the processing

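Results are limited by 2 arrays per population, and 39 of 70 receptor subunits were too dim to test. Without a block, 0 receptor subunits and 0 partner genes passed as deposited, under quantile normalization, one 75th percentile, pseudocounts of 16 and 64, no filter, a filter at the 60th percentile and averaged probe sets. The 28 calls over all genes became 13 as deposited, 18 at one 75th percentile, 14 with no filter, 18 at the 60th percentile and 14 with averaged probe sets. Leaving out 1 array in turn, where the lone array of a population is assumed to vary like the others, gave 2 to 4 receptor subunits, 156 to 380 genes and 1 to 2 partner genes. The median receptor difference then ranged from -0.13 to 0.53, and it was 0.0884 with no filter and 0.56 at the 60th percentile. The replicate block gave 6 receptor subunits, 805 genes and 7 partner genes, and as deposited 8, 1169 and 9. Combinations with the block were chosen after seeing the data. With the block, no filter gave 353 genes and 2 partner genes, quantile normalization 1702 genes and 15 partner genes, and averaged probe sets 3 receptor subunits. Gria4, Chrnb4 and Chrna3 were called in 7 of 7 fits with a block, Chrna7 in 6, Chrna4 and Htr1b in 5, Chrnb2 in 4 and Gabbr1 in 2. Among the 17 genes named by rule, 4 changed sign under some setting, none of them called: Grik5 (-0.0448 under quantile normalization with or without the block, -0.0076 at one 75th percentile) and Grin2d (-0.0482 under quantile normalization with or without the block), and Grik4 and Grin2b when an array was left out. Leaving out 1 array, Grik5 ranged from -0.35 to 0.37, Grin2d from -0.43 to 0.53, Grik4 from -0.13 to 0.87 and Grin2b from -0.0285 to 1.55. The causes were not tested. Leave-one-out with the block could not be fitted, as no residual degree of freedom remains.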

Other observations

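Of the 6 receptor subunits called with the block, 4 lie on chromosome 9 in the reference gene table (Chrna3, Chrnb4, Gria4 and Htr1b), and 8 of the 31 tested subunits lie there. Over all genes tested, 5.58% lie on chromosome 9 and 5.59% of the genes called with the block do. Chrna3 and Chrnb4 are neighbours, so they are not separate instances. This count was made after the calls were seen and was not tested.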
